A study of Mus musculus with 6 samples.

Results

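A group of 10 genes that set the shape of mitochondria was followed in microglia, the resident immune cells of the brain, from mice with and without overexpression of the transcriptional coactivator PGC-1α. The 10 genes were Mfn1, Mfn2, Opa1, Oma1, Dnm1l, Fis1, Mff, Mief1, Immt and Chchd3, and they were chosen by symbol as textbook components of mitochondrial fusion, fission and cristae. Matching the transcript identifiers of the array's probes to RefSeq gene symbols gave 18 probes for these 10 genes, of 56605 probes in all and 23462 genes that could be named. Of the 10 genes, 8 had 2 probes each, and Oma1 and Dnm1l had 1 each.

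The 6 RNA samples came from male mice aged 10 weeks, and each sample was hybridized alone to a 1-colour expression array, 3 for each group. The PGC-1αf/f mice carried an allele of PGC-1α flanked by loxP sites and linked to an enhanced GFP tag. The mPGC-1α mice carried the same allele together with a tamoxifen-inducible Cre (CreERT2) in the Cx3cr1 locus. Cx3cr1 is expressed in microglia and also in other myeloid cells. All mice had a C57BL/6 background, and the controls were littermates. The labels state only whether PGC-1α was overexpressed, and the genotypes come from the study's methods. In these methods tamoxifen was given on consecutive days and followed by a waiting period before experiments. For the study of microglial morphology, brains of both groups were taken after tamoxifen. Whether the control mice of the arrays received it is not stated separately in the sources used here. Microglia were isolated from minced brain with a P2RY12 magnetic selection kit.

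Mitochondria continually fuse and divide. MFN1 and MFN2 are GTPases that join outer membranes, and OPA1 is the GTPase that joins inner membranes and keeps cristae narrow. OMA1 is a stress-activated protease of the inner membrane that cuts OPA1 and thereby stops inner membrane fusion. Division is carried out by the GTPase DRP1, the product of Dnm1l, which is recruited to the outer membrane by receptors such as MFF and MIEF1 and, by a less settled role, FIS1. IMMT (mitofilin) and CHCHD3 are subunits of MICOS, the complex that holds cristae junctions together. PGC-1α binds no DNA by itself and acts through factors such as ERRα, NRF1 and GABP at genes of mitochondrial biogenesis, and in muscle Mfn2 is a known target of PGC-1α with ERRα.

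The promoter sequences of the 10 genes were read for the motifs of these factors, and 4 promoters are shown, chosen after the values were seen. They are those of Oma1 and Fis1, whose groups did not overlap with 1 probe a gene, and of Opa1 and Chchd3, whose second probes lay on one side of the controls in all values present. For Opa1 this rests on leaving out a flagged control spot. The sequences are the 250 bases before the annotated start in RefSeq's promoter table of build GRCm38.p6, in the direction of the gene, in lower case with motif matches in capitals. The Oma1 and Opa1 windows hold the NRF1 core, and those of Fis1 and Chchd3 hold an ETS site of the kind bound by GABPA. The coordinates are chr4:103313596-103313845 on the plus strand for Oma1, chr16:29579084-29579333 on the plus strand for Opa1, chr5:136953025-136953274 on the plus strand for the first of the Fis1 promoters, and chr6:33060261-33060510 on the minus strand for Chchd3.
Oma1: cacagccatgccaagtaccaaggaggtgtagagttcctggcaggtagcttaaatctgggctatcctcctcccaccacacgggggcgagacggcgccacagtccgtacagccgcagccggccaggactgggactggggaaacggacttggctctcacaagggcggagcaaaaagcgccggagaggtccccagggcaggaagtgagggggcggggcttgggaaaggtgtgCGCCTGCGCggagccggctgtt
Opa1: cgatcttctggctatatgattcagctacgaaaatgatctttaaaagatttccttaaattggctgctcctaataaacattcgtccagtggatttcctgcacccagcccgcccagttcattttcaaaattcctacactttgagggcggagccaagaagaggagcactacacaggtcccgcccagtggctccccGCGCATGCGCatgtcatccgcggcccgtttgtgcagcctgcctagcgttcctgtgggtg
Fis1: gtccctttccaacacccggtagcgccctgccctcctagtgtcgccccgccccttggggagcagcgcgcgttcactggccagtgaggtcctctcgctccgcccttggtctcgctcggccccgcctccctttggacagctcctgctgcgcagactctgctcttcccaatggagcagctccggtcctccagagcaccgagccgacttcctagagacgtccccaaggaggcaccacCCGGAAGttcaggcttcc
Chchd3: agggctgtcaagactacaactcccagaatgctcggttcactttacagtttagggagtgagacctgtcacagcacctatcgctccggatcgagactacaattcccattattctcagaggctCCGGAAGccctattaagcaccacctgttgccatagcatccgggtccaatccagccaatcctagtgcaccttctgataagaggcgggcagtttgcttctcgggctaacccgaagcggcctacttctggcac

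All 10 genes had an entry in the promoter table, with 15 promoters among them. Both strands were searched. The NRF1 core GCGCANGCG was found in 2 of the 15 promoters, those of Oma1 and Opa1, and in 5.16% of the 32851 promoters of the table. In Oma1 the match lay on the opposite strand, 22 to 14 bases before the start. In Opa1 it lay on both strands, where the matches overlap, and began 59 bases before the start. The ETS site CCGGAAG was found in 5 promoters, one each of Chchd3, Fis1, Immt, Mfn1 and Mief1, and in 6.91% of all promoters. The element of ERRα, TNAAGGTCA, the shorter nuclear receptor site AAGGTCA that it contains, and the YY1 site AAGATGGCG were found in 0 of the 15 windows, against 1.14%, 4.08% and 0.606% of all promoters. The windows of the 10 genes had a GC content of 46.0% to 70.8%, and the median of all promoters was 52.4%. A match is a run of letters and not a measured binding site, and a missing match speaks only for these windows.

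On the 6 arrays, 27025 to 30272 of 59305 non-control spots were well above background and 0 were saturated. The 75th percentile of the signal, by which each array was scaled, ran from 1012 to 2138 and was highest for PGC-1αf/f replicate 3. All 10 microglia markers examined, P2ry12, Tmem119 and Cx3cr1 among them, had a probe well above background on all 6 arrays. The summed signal of 6 of them was 130 to 172 times the array's 75th percentile in PGC-1αf/f and 133 to 152 times in mPGC-1α. Of these 6, Cx3cr1, the gene whose locus carries the Cre, was lower in mPGC-1α by a log2 difference of -0.51 (limma adjusted p = 0.194) with separate groups, and the groups of the other 5 overlapped. PGC-1αf/f replicate 3 stood apart from the other arrays. Its mean correlation with the other 5 arrays was 0.928, against 0.962 to 0.972 for the rest, and the summed signal of 12 blood leukocyte markers was 19.6 times the array's 75th percentile there, against 117 and 135 in the other control arrays and 137 to 168 in the mPGC-1α arrays. The sum of 8 oligodendrocyte markers was 17.3 to 22.5 in PGC-1αf/f and 11.1 to 13.8 in mPGC-1α. Mog was well above background on the control arrays only, so it is in this sum but left out of the counts that follow. All of the other 7 were lower in mPGC-1α, where 5652 of all 12302 genes were. Of these 7, 4 had an unadjusted limma p under 0.05, where 5.71% of all 12302 genes were lower at that p, and 0 passed the adjusted threshold. The neuron sum was 11.9 to 15.3 in PGC-1αf/f and 13.7 to 16.1 in mPGC-1α, and the astrocyte sum 7.56 to 10.4 and 9.18 to 13.8. The sum of 6 endothelial and mural markers was 0.52 to 1.69 and 0.90 to 2.46, and 3 of these 6 fell short of well above background on some array. Of the 10 measured leukocyte markers, 10 had a higher mean in mPGC-1α, where 54.1% of all 12302 genes did. But 0 had an unadjusted limma p under 0.05, where 8.16% of all genes were higher at that p. The groups of 2 were separate, where 12.2% of all genes lay wholly higher in mPGC-1α. In the slide columns shared by the groups the differences of these markers were smaller, from -0.04 for S100a9 to 0.65 for Ngp in column 1, against 0.74 and 2.21 over all arrays. Those columns leave out PGC-1αf/f replicate 3, the array with the low leukocyte sum, so they do not separate slide position from that array. Cd79a and Ms4a1, which mark B cells, were too dim on some array to be measured in this way. The part of these other cell types in the results below was not tested, and in bulk RNA fewer cells of a type cannot be told apart from less RNA per cell.

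Ppargc1a, the gene that encodes PGC-1α, served as a check of the labels. Its values are log2 signals relative to the 75th percentile of each array, the scale used for all values here. The brighter probe read 0.19, -0.44 and -1.21 in PGC-1αf/f replicates 1 to 3 and 0.57, 0.28 and 0.08 in mPGC-1α. The difference was 0.80 ± 0.35 (limma estimate ± SE, n = 3 per group, adjusted p = 0.306), and the groups overlapped. The second probe differed by 0.59 (limma adjusted p = 0.445). Whether these probes lie within the transcript of the loxP-flanked allele is not given in the sources used here.

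None of the 10 genes differed between mPGC-1α and PGC-1αf/f microglia past the adjusted threshold of 0.05. Taking 1 probe for each gene, 5 were higher and 5 lower in mPGC-1α, with a median log2 difference of 0.01 beside 0.03 over 12302 genes. Opa1 is counted as higher here, although its brighter probe, passed over for a flagged spot, gave -0.40. The even split depends on that choice. The range ran from -0.42 for Oma1 to 0.29 for Fis1. These were the only 2 genes of the 10 whose 3 mPGC-1α values all lay on one side of the 3 PGC-1αf/f values in this probe choice. Over the 12302 genes read in the same way, 12.2% lay wholly higher and 10.8% wholly lower in mPGC-1α, so 1 gene of 10 in each direction is near that background.

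**Figure D1:**
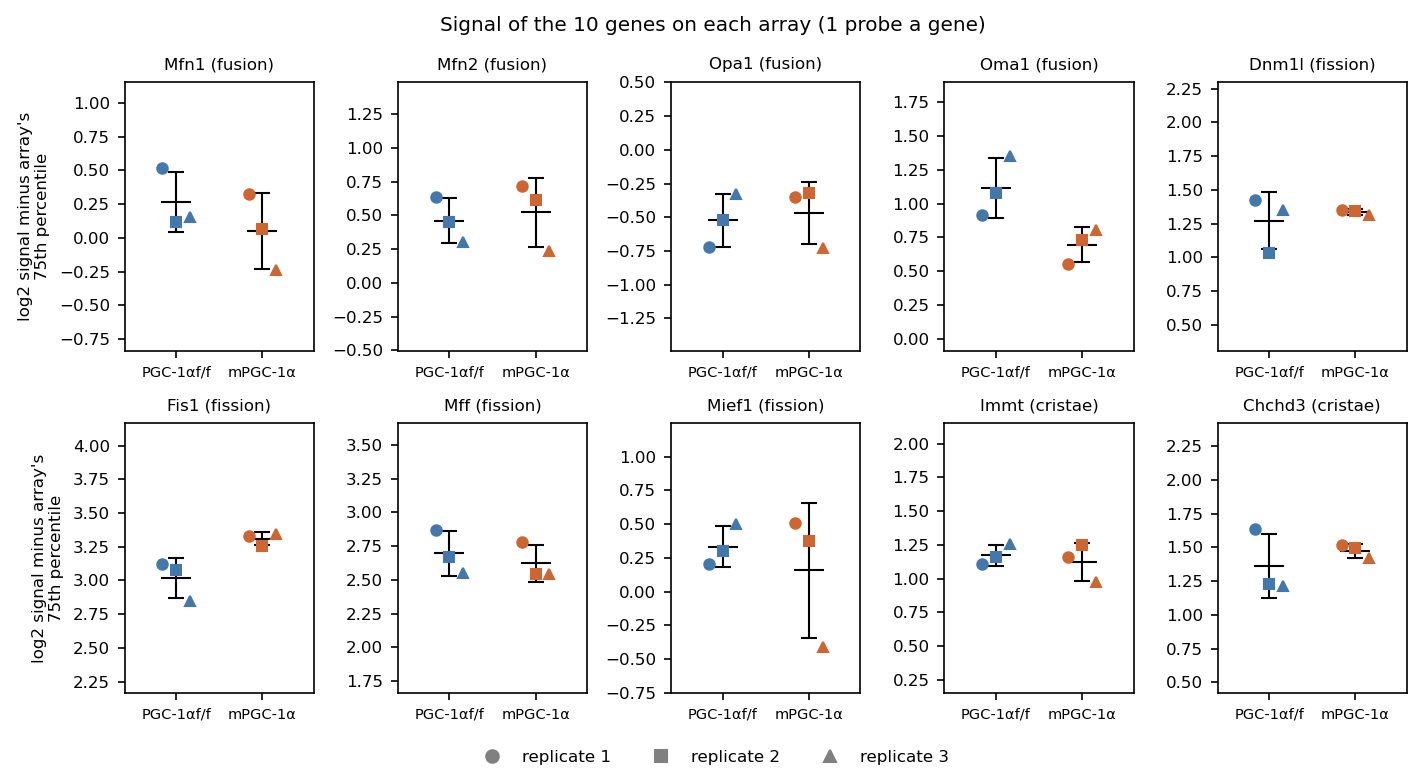
Log2 signal relative to the array's 75th percentile (vertical axis, 2 units high in every panel) of the 10 genes in PGC-1αf/f and mPGC-1α microglia, 1 probe a gene, with a symbol for each replicate number and black lines for the mean and SD (n = 3). The groups are separate for Oma1, where mPGC-1α is lower, and for Fis1, where it is higher, and they overlap in the other 8 panels.

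Over probes, 17 of the 18 were bright enough to be tested, 10 of them higher and 7 lower in mPGC-1α, with a median log2 difference of 0.06 beside 0.00 over all tested probes. Of all tested probes, 0.0792% passed the adjusted threshold, 20 of 25257, and 0 of the 17 did, with limma adjusted p-values from 0.274 to 0.975. At an unadjusted p under 0.05, 2 of the 17 were lower and 0 higher, where 9.21% of all tested probes were lower and 7.53% higher. The 2 were the Oma1 probe and a dim Mfn1 probe that entered the fit only through the control arrays, where it was the brighter, so that its place in this count carries no weight. Of the 15 with a value on every array, 2 lay wholly higher and 1 wholly lower, where 11.4% and 13.7% of all such probes did. These shares of the 10 genes' probes are small counts near the background.

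**Figure D2:**
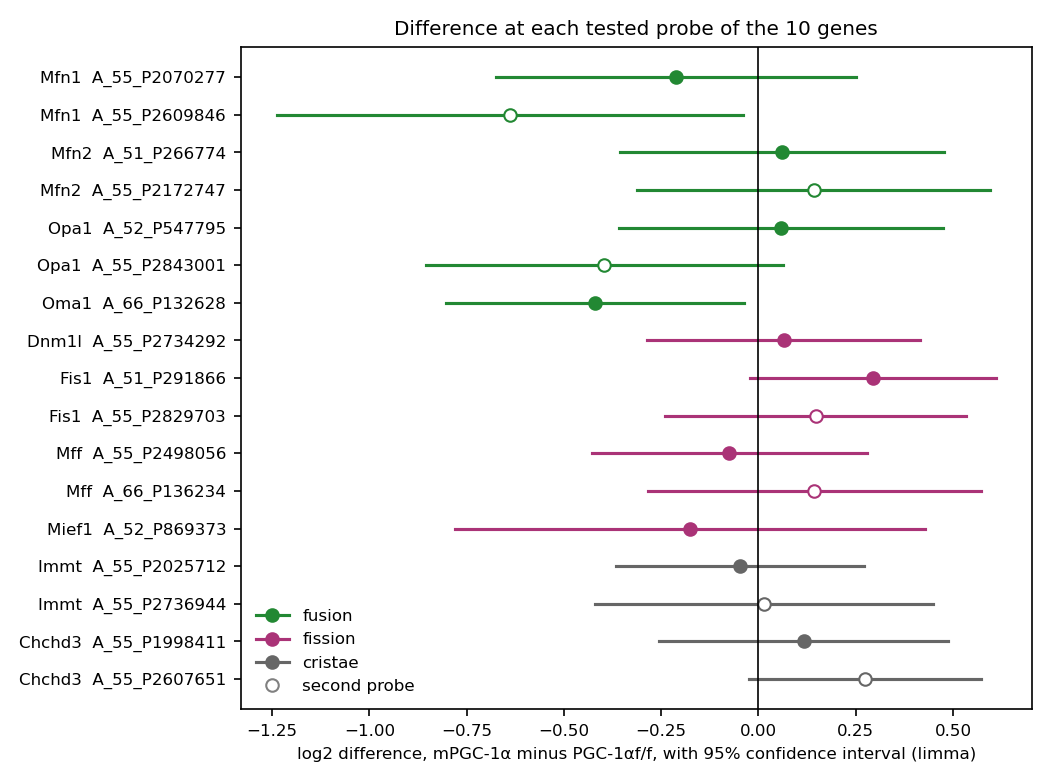
Log2 difference, mPGC-1α minus PGC-1αf/f, with its 95% confidence interval from limma for each of the 17 tested probes, filled for the probe that stands for the gene and open for the second probe. The interval spans 0 for 15 probes and lies below it for Oma1 and for the dimmer Mfn1 probe.

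Oma1, which encodes the protease that cuts OPA1, had the largest difference of the 10 genes with 1 probe a gene. Its probe A_66_P132628 read 0.91, 1.08 and 1.35 in PGC-1αf/f and 0.55, 0.73 and 0.80 in mPGC-1α. Every mPGC-1α value was below every control value, and the highest was that of PGC-1αf/f replicate 3, the array that stood apart. The means were 1.11 ± 0.22 and 0.69 ± 0.13 (SD, n = 3), a difference of -0.42 ± 0.16 (SE) with a 95% interval from -0.80 to -0.04, or 0.748 times the control signal. The limma p was 0.0356 before and 0.274 after Benjamini-Hochberg adjustment. The columns of the slide that, by the position numbers in the names of the scan files, held an array of each group gave -0.36 and -0.35. Leaving out PGC-1αf/f replicate 3 gave -0.30, with an unadjusted limma p of 0.0994. It ran from -0.55 to -0.30 over all alternative settings, and passed the adjusted threshold under 1 of them, array weights estimated by restricted maximum likelihood (REML, chosen after seeing the data), with -0.37 and adjusted p = 0.0424, a setting in which 13.8% of all tested probes passed.

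By the root mean square difference of values centred on each gene's mean over the 6 arrays, the 3 genes most like Oma1 of 11564 compared were Hic2, Etohd2 and Rdh9. The distances were 0.032, 0.043 and 0.047 log2 units. Their own log2 differences were -0.42, -0.40 and -0.36, which the choice by likeness to Oma1 fixes.

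Opa1 was read by 2 probes that differed in direction. The probe A_52_P547795 gave -0.72, -0.52 and -0.33 in PGC-1αf/f and -0.35, -0.32 and -0.73 in mPGC-1α. The groups overlapped, and the difference was 0.06 with an interval from -0.36 to 0.47 (limma adjusted p = 0.886). The probe A_55_P2843001, designed on another transcript variant, gave 1.48 and 1.61 in PGC-1αf/f replicates 2 and 3 and 1.04, 1.00 and 1.41 in mPGC-1α. Its spot on the array of PGC-1αf/f replicate 1 was flagged as an outlier and left out, so that the fit used 5 arrays. All 3 mPGC-1α values were below both control values, with a difference of -0.40 ± 0.19 (SE), an interval from -0.86 to 0.06 and a limma adjusted p of 0.345. With outlier spots kept the difference was -0.35 (limma adjusted p = 0.316), which places the flagged control value among those of mPGC-1α. The separation thus rests on leaving that spot out. Within an array the second probe exceeded the first by 2.00 and 1.94 in PGC-1αf/f and by 1.38, 1.32 and 2.14 in mPGC-1α, so that mPGC-1α replicate 3 lay above the controls and the other 2 below. This difference between the probes was not tested. The second probe passed the adjusted threshold under 1 alternative, REML weights (-0.44, adjusted p = 0.0443).

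The mitofusins, which join outer membranes, had overlapping groups at all 4 of their probes. Mfn1 probe A_55_P2070277 read 0.52, 0.12 and 0.16 in PGC-1αf/f and 0.33, 0.07 and -0.24 in mPGC-1α. The groups overlapped, with a difference of -0.21 and an interval from -0.67 to 0.25 (limma adjusted p = 0.595). It was -0.07 without mPGC-1α replicate 3 and -0.35 without mPGC-1α replicate 1. The second Mfn1 probe, A_55_P2609846, was dim, well above background on 3 control arrays and on 1 mPGC-1α array. It read -2.72, -3.52 and -2.83 in PGC-1αf/f and -3.43, -3.58 and -3.97 in mPGC-1α, a measured difference of -0.64 that is given as a description only, since the probe entered the fit through the control arrays alone. The groups overlapped through PGC-1αf/f replicate 2. The difference was -0.89 without that array, and over the alternatives it ran from that value to -0.17 with REML weights.

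Mfn2 probe A_51_P266774 read 0.63, 0.45 and 0.30 in PGC-1αf/f and 0.72, 0.62 and 0.24 in mPGC-1α. The difference of 0.06 had an interval from -0.35 to 0.48 (limma adjusted p = 0.879), and its sign changed in 3 of 19 alternatives. The second Mfn2 probe, on another transcript variant, read -0.80, -0.98 and -1.22 in PGC-1αf/f and -0.69, -0.70 and -1.18 in mPGC-1α, a difference of 0.14 (limma adjusted p = 0.724) that was 0.03 without PGC-1αf/f replicate 3 and 0.30 without mPGC-1α replicate 3. The interval of the first probe corresponds to 0.782 to 1.39 times the control signal.

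Among the fission genes, Fis1, an outer membrane protein tied to mitochondrial division and turnover, was the only one whose groups did not overlap. Its probe A_51_P291866 read 3.12, 3.08 and 2.85 in PGC-1αf/f and 3.33, 3.26 and 3.35 in mPGC-1α. The lowest value was again that of PGC-1αf/f replicate 3, and the mPGC-1α values spanned less than the controls. The means were 3.02 ± 0.15 and 3.31 ± 0.05 (SD, n = 3), a difference of 0.29 ± 0.13 (SE) or 1.23-fold, with an interval from -0.02 to 0.61 and a limma adjusted p of 0.323. The shared slide columns gave 0.21 and 0.18, the fit without PGC-1αf/f replicate 3 gave 0.21, and the alternatives ranged from 0.06, with normexp background correction and quantile normalization together, to 0.35.

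The second Fis1 probe, A_55_P2829703, read 3.21, 2.97 and 2.70 in PGC-1αf/f and 3.09, 3.05 and 3.18 in mPGC-1α. Its difference was 0.15 (limma adjusted p = 0.665), and the groups overlapped because PGC-1αf/f replicate 1 was the highest array. It was 0.27 without that array and 0.02 without PGC-1αf/f replicate 3, the lowest. Set against the first probe on the same array, the second probe stood at 0.09, -0.11 and -0.15 in PGC-1αf/f and at -0.24, -0.20 and -0.17 in mPGC-1α. The highest of these values was that of PGC-1αf/f replicate 1, the other 2 control values lay close to the mPGC-1α values, and the difference between the probes was not tested.

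Dnm1l, which encodes the division GTPase DRP1, read 1.43, 1.03 and 1.35 in PGC-1αf/f and 1.35, 1.34 and 1.31 in mPGC-1α. The mPGC-1α values lay between those of control replicates 2 and 1. The difference was 0.06, with an interval from -0.29 to 0.42 (limma adjusted p = 0.845).

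Mff, a receptor for DRP1, read 2.87, 2.67 and 2.55 in PGC-1αf/f and 2.78, 2.54 and 2.54 in mPGC-1α at probe A_55_P2498056. The difference was -0.07, with an interval from -0.43 to 0.28 (limma adjusted p = 0.820). The second Mff probe read 1.43, 1.44 and 1.72 in PGC-1αf/f and 1.57 and 1.79 in mPGC-1α replicates 2 and 3, with the spot of replicate 1 left out as an outlier, and its difference on 5 arrays was 0.14 (limma adjusted p = 0.695). It ran from 0.04 without mPGC-1α replicate 3 to 0.25 without mPGC-1α replicate 2, and it was -0.05 with normexp and quantile normalization. The groups overlapped at both probes.

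Mief1, another DRP1 receptor, read 0.21, 0.30 and 0.50 in PGC-1αf/f and 0.51, 0.37 and -0.41 in mPGC-1α. A single array, mPGC-1α replicate 3, set the sign, since the difference was -0.18 with all arrays (limma adjusted p = 0.744) and 0.11 without it. On 0 arrays was a second Mief1 probe well above background, and it was not tested.

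The cristae genes Immt and Chchd3 encode subunits of MICOS. Immt read 1.11, 1.16 and 1.26 in PGC-1αf/f and 1.16, 1.25 and 0.97 in mPGC-1α at probe A_55_P2025712, a difference of -0.05 with an interval from -0.37 to 0.27 (limma adjusted p = 0.877). The second probe, on another variant, read -1.58, -1.69 and -2.18 in PGC-1αf/f and -1.74, -1.80 and -1.86 in mPGC-1α, a difference of 0.01 (limma adjusted p = 0.975) that ran from -0.17 to 0.13 when an array was left out. In both the mPGC-1α values overlapped the controls.

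Chchd3 probe A_55_P1998411 read 1.63, 1.23 and 1.21 in PGC-1αf/f and 1.52, 1.49 and 1.42 in mPGC-1α, a difference of 0.12 (limma adjusted p = 0.726). The high value of PGC-1αf/f replicate 1 made the groups overlap, and the difference was 0.25 without it and 0.04 without PGC-1αf/f replicate 3. The second probe, A_55_P2607651, read 1.11, 1.26 and 1.25 in PGC-1αf/f and 1.46, 1.42 and 1.56 in mPGC-1α, and here all 3 mPGC-1α values were above the controls. Its difference was 0.27 ± 0.13 (SE) or 1.21-fold, with an interval from -0.02 to 0.57 and a limma adjusted p of 0.325. It stayed between 0.14 and 0.31 in the alternatives. The promoter of Chchd3, like that of Fis1, holds the ETS site shown above, as do those of Immt, Mfn1 and Mief1. At Chchd3 and at Fis1 the groups were separate at a single probe and overlapped at the other. At Immt, Mfn1 and Mief1 they overlapped at every probe.

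**Figure D3:**
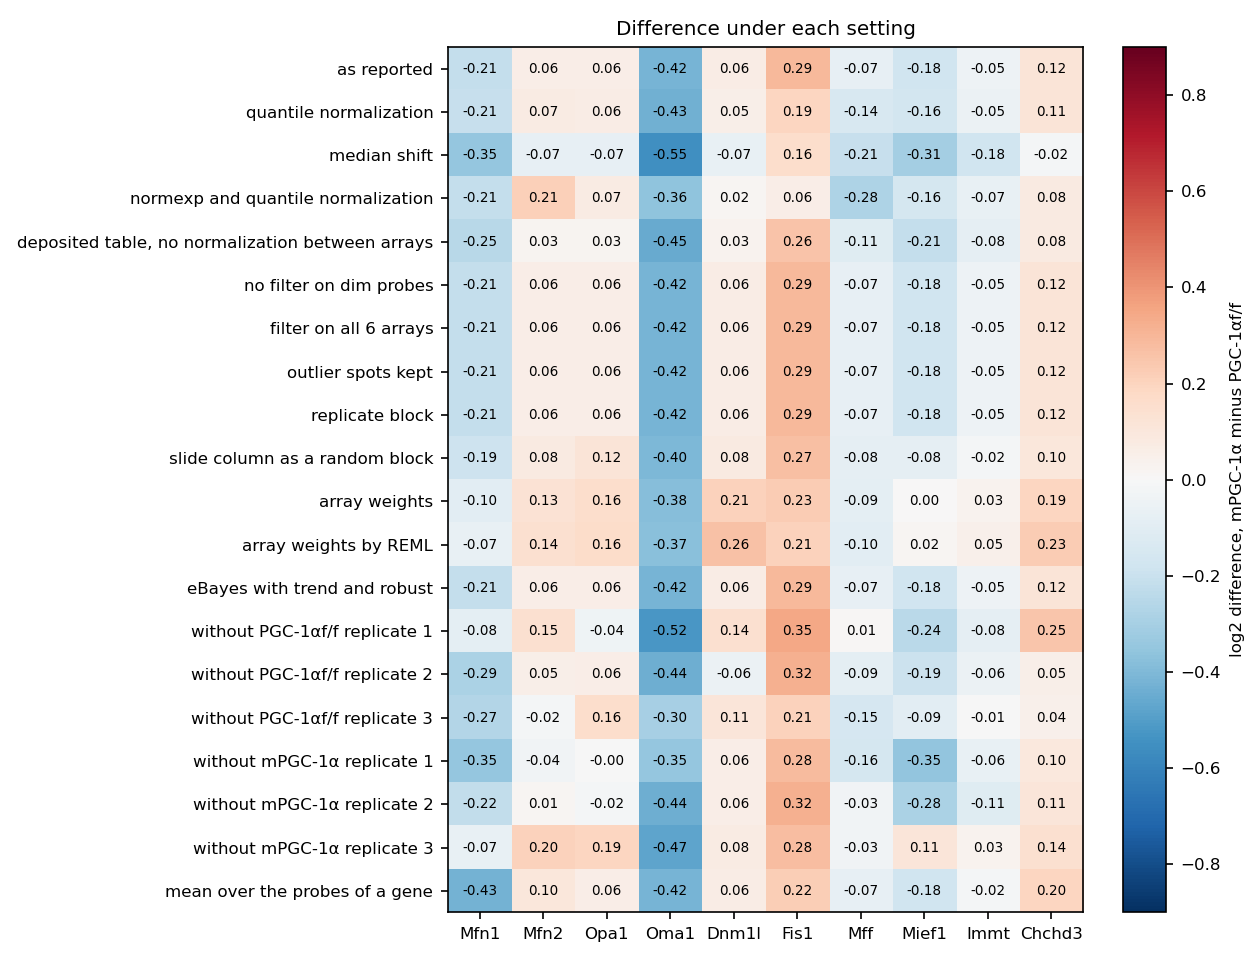
Log2 difference, mPGC-1α minus PGC-1αf/f, of the 10 genes (columns) as reported and under each alternative setting (rows), with red for higher and blue for lower in mPGC-1α. Oma1 is negative in every row, from -0.55 to -0.30, and Fis1 positive in every row, from 0.06 to 0.35.

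A wider list of 47 genes that act on mitochondrial shape was read on the same fit, and 43 of them had a tested probe with a value on all 6 arrays. Of the 43, 27 were higher and 16 lower in mPGC-1α, with a median log2 difference of 0.06, and 0 passed the adjusted threshold. At an unadjusted p under 0.05, 1 was higher and 2 lower, where 8.16% of all 12302 genes were higher and 5.71% lower. The groups did not overlap for 9 of the 43 genes, 5 higher and 4 lower, beside the 12.2% and 10.8% of all genes. These counts are at or near the shares of all genes. With REML weights 3 genes passed the adjusted threshold, Mtx2 (0.42), Akap1 (-0.53) and Spire1 (-0.44), where 11.6% of all genes did. With a median shift the median of the list was -0.07, and without PGC-1αf/f replicate 1 it was 0.03. The 3 genes at an unadjusted p under 0.05 became 0 with the deposited table and without mPGC-1α replicate 2. Their number was 5 without PGC-1αf/f replicate 1, 7 with array weights and 12 with REML weights. Crls1, Miga1, Gdap1 and Trak2 were on the array but were not measured in this way.

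By role, 8 of 10 further genes of cristae and MICOS were higher in mPGC-1α, with a median of 0.22 and 0 at an unadjusted p under 0.05. The count of 0 became 3 without PGC-1αf/f replicate 1 and 5 with REML weights, and it was 0 to 2 in the other alternatives read. Of all 12302 genes 54.1% were higher, with a median of 0.03. The median was 0.09 with 7 of 10 higher when arrays were shifted by their median, a scaling that moved the median of all tested probes to -0.14. With the scaling used throughout, the other roles had medians of -0.08 for 5 genes of fusion and membrane lipids, 0.06 for 8 of fission, 0.02 for 9 inner membrane proteases and scaffolds, 0.06 for 7 regulators of fission and turnover, and 0.00 for 4 of transport and anchoring. With the median shift these 5 medians were all negative, from -0.21 for fusion and membrane lipids to -0.07 for fission and for the regulators.

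The 3 highest genes of the wider list were Chchd6, Inf2 and Apoo. Chchd6, a MICOS subunit, read 0.70, 0.38 and -0.50 in PGC-1αf/f and 0.89, 0.47 and 0.92 in mPGC-1α, a difference of 0.57 (limma adjusted p = 0.390) that came to 0.22 without PGC-1αf/f replicate 3. Apoo, also of MICOS, read 3.08, 2.45 and 1.91 in PGC-1αf/f and 3.26, 2.82 and 2.92 in mPGC-1α, a difference of 0.52 (limma adjusted p = 0.402) and 0.23 without that array. Both overlapped, and in both the lowest value was that of PGC-1αf/f replicate 3. Without PGC-1αf/f replicate 1 the difference rose to 0.82 for Chchd6 and to 0.82 for Apoo. Inf2, an actin-assembling formin that acts before DRP1 at sites of division, read -0.78, -0.33 and -0.74 in PGC-1αf/f and 0.14, -0.08 and -0.32 in mPGC-1α. The groups nearly touched but did not overlap, and the difference was 0.53 ± 0.19 (SE, limma adjusted p = 0.252).

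The 3 lowest were Akap1, Spire1 and Dnajc11, and in each the groups did not overlap. Akap1 encodes an outer membrane anchor for protein kinase A and read -0.58, -0.89 and -0.78 in PGC-1αf/f and -1.12, -1.50 and -1.08 in mPGC-1α, a difference of -0.48 ± 0.17 (SE, limma adjusted p = 0.251). Spire1, an actin nucleator with a mitochondrial form, read -0.588, -0.705 and -0.996 in PGC-1αf/f and -1.19, -1.15 and -1.09 in mPGC-1α, a difference of -0.38 ± 0.15 (SE, limma adjusted p = 0.280). Dnajc11, which encodes a protein found with MICOS, read -0.45, -0.28 and -0.38 in PGC-1αf/f and -0.50, -0.60 and -0.93 in mPGC-1α. Its difference was -0.31 ± 0.16 (SE, limma adjusted p = 0.359), and it was -0.18 without mPGC-1α replicate 3, the lowest array.

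**Figure D4:**
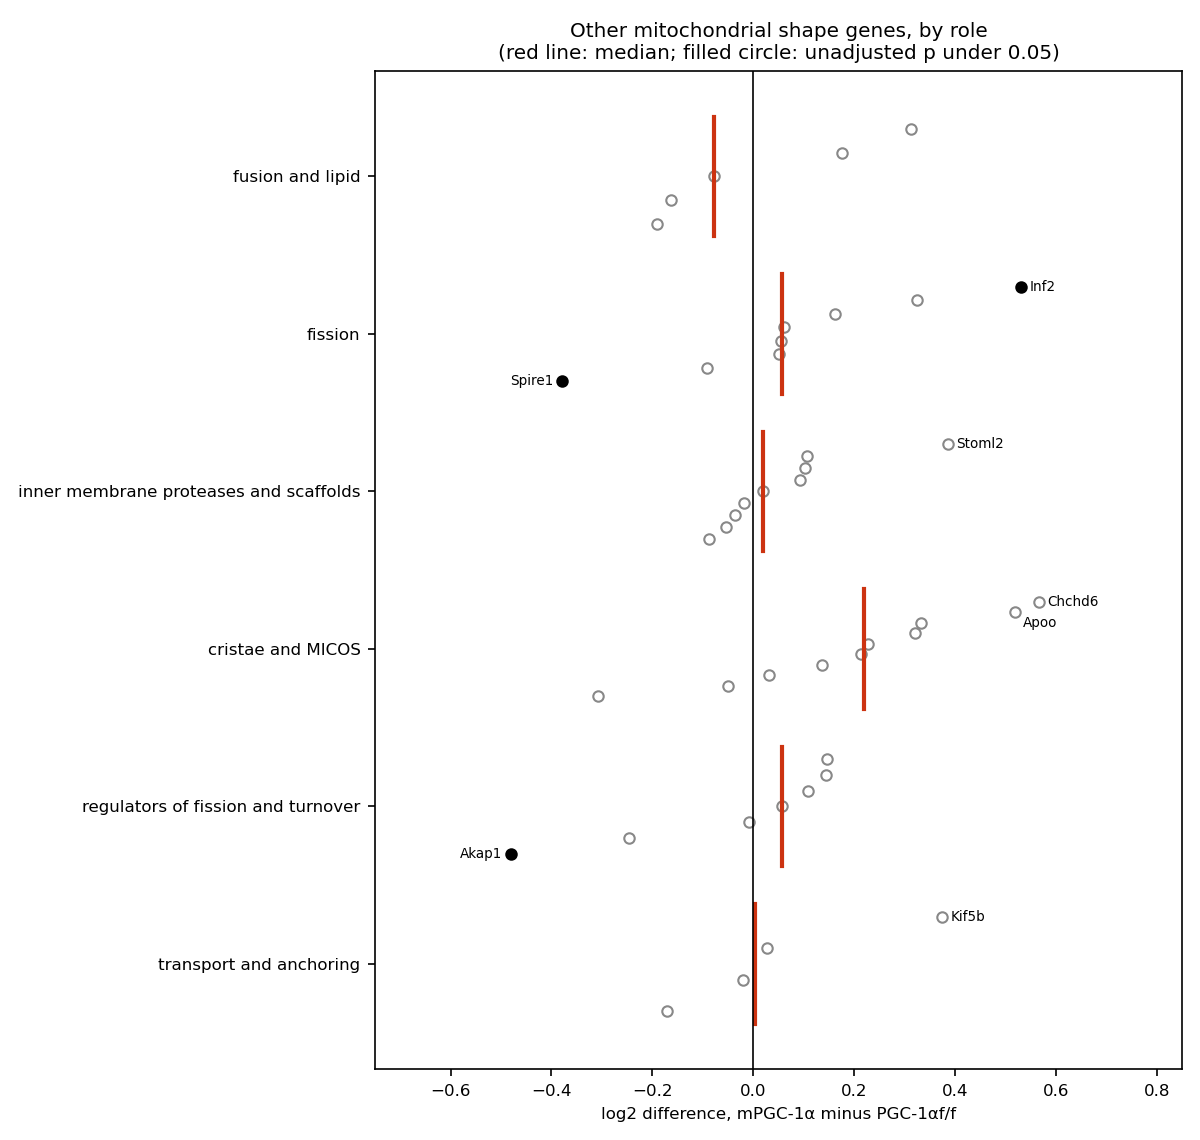
Log2 difference, mPGC-1α minus PGC-1αf/f, of the 43 measured genes of the wider list, a circle for each gene by role, spread vertically for legibility, with a red line at the median of the role. The cristae and MICOS genes have the highest median, 0.22, and the 3 filled circles (Inf2, Spire1 and Akap1) have an unadjusted p under 0.05.

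By the position numbers in the names of the scan files, the 6 arrays lay on 1 slide with PGC-1αf/f in one row and mPGC-1α in the other. If so, row and group cannot be told apart. The labels do not say how many mice gave each sample, and the p-values measure the spread between these samples only. With 1 probe a gene, the intervals leave room for changes of up to 1.53 times the control signal at Fis1 and down to 0.574 times at Oma1, and a p above the threshold does not show that the groups were alike.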

How the data were processed

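After cRNA amplification the authors made cDNA, labelled it with Cy5 and hybridized it to 1-colour Agilent mouse arrays, 3 per group. The deposited scanner files, made with Agilent Feature Extraction 11.5.1.1 per the file headers, hold for each spot a red signal intensity after background subtraction, with flags. The series table that was also deposited holds the same intensity, rounded and without normalization between arrays. The methods name GeneSpring and no test for single genes.

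Control and outlier spots were left out, the log2 of the deposited intensity was set relative to the 75th percentile of its array, and spots of a probe were averaged. A probe entered the fit where every array of either group had it well above background. The fit used lmFit and eBayes of limma 3.58.1 without covariates, two-sided, in R 4.3.3 with the package data.table (version 1.17.8), with Benjamini-Hochberg adjustment over all 25257 probes with a p-value and a threshold of 0.05. The steps were tested on simulated data. For 1 probe a gene, the brightest tested probe with values on all 6 arrays was taken. All probes of the 10 genes are given, and of the wider list the 3 highest, the 3 lowest and any past the threshold. A further gene of that list is not reported here. Gene symbols and promoters came from RefSeq tables of GRCm38.p6. Promoters were searched with Python 3.11.15, pandas 2.3.3 and numpy 2.4.6, and plots were drawn with matplotlib 3.10.9. The genes, lists, motifs and tests were chosen with earlier results of these data known. Alternatives changed the normalization, background correction, source table, filter, outlier spots, probe rule, variance model, block, weights and arrays. The number of arrays limits the precision.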

Additional observations from a re-analysis of the deposited data

How the results depend on the processing

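The number of all probes past the adjusted threshold, 20 as reported, depended on the setting. It was 11 with quantile normalization, with a median shift and with normexp background correction followed by quantile normalization (below, normexp with quantile), 456 with the deposited table, 9 without a filter on dim probes, 4 with probes well above background on all 6 arrays, 138 with slide column as a random block (correlation 0.349), 754 with array weights and 3494 with REML weights, an alternative chosen after seeing the data, while keeping outlier spots gave 20 and the trend with robust moderation 15. Leaving out each array in turn gave 0 to 24. Of the 10 genes, with 1 probe a gene, 0 passed in each of these except with REML weights, where 1 did (Oma1). The second Opa1 probe also passed there. At an unadjusted p under 0.05 the count of 1 gene became 0 with normexp with quantile, with the deposited table and without a filter, 2 with the trend and robust moderation, 3 with REML weights, and 0 to 1 when an array was left out. The count of 2 genes with separate groups became 1 with normexp with quantile, 0 with the deposited table, and 2 to 4 when an array was left out. The median of the 10 genes, 0.01, was -0.13 with a median shift, which moved the median of all tested probes by a like amount to -0.14, and -0.06 to 0.09 when an array was left out. The cause of these changes was not tested.

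The sign turned with a median shift for Mfn2 (-0.0714), Opa1 (-0.0742), Dnm1l (-0.0679) and Chchd3 (-0.0169), and with array weights and REML weights for Mief1 (0.00419 and 0.0192) and Immt (0.0298 and 0.0454). When an array was left out, the differences spanned 0 for Mfn2 (-0.0351 to 0.205, negative without PGC-1αf/f replicate 3 or mPGC-1α replicate 1), Opa1 (-0.0410 to 0.191, negative without PGC-1αf/f replicate 1, mPGC-1α replicate 1 or mPGC-1α replicate 2), Dnm1l (-0.0551 to 0.144, negative without PGC-1αf/f replicate 2), Mff (-0.155 to 0.0138, positive without PGC-1αf/f replicate 1), Mief1 (-0.353 to 0.108, positive without mPGC-1α replicate 3) and Immt (-0.108 to 0.0289, positive without mPGC-1α replicate 3). Mfn1, Oma1 and Fis1 kept their sign in all 19 alternatives. Oma1's unadjusted p rose above 0.05 without PGC-1αf/f replicate 2 or 3, or without mPGC-1α replicate 1 or 2.

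The labels do not say that a shared replicate number marks a shared source. The deviations of same-numbered arrays correlated by 0.139, 0.127 and 0.019, the last too low to take the numbers as pairs. Of the 6 arrays, 5 correlated best with their own number, a hint from the data only. By the position numbers in the names of the scan files, numbers 1 and 2 each shared a slide column between the groups, and number 3 did not. Replicate number and slide column thus cannot be told apart for numbers 1 and 2. With the replicate number as a block, 0 probes passed the adjusted threshold, and of the 10 genes 0 passed it and 1 had an unadjusted p under 0.05.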
